A study of Sus scrofa with 12 samples.

Results

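The balance between the last and the first exon was measured for 4467 protein-coding genes of pig (Sus scrofa) aortic valve interstitial cells, out of 22861 genes in the deposited exon table. A gene entered if it was annotated as protein_coding, had at least 5 exon rows, had its first and last exon above 0 in all 12 libraries, and averaged at least 10 RPKM over these 2 exons. RPKM is the number of reads scaled to exon length and to the library total. First and last were taken along the gene's strand by exon start. Of 12410 protein-coding genes with at least 5 exon rows, 6040 had a terminal exon at 0 in some library, 499 of them with a mean at or past 10 RPKM, and 1903 more fell under the mean level. The genes were thus chosen by the RPKM of their terminal exons in the same 12 libraries, and their level is a description. MSRA and IFI35 lay just inside the threshold, and PDHX and TEX10 just outside it, all within 0.01 RPKM of 10 RPKM. A gene symbol was found for 4130 of the 4467.

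All cells were aortic valve interstitial cells grown on glass, the stimulus for calcification, in DMEM medium. The 12 libraries formed 4 groups of 3 biological replicates, which were Stage 1 (day 5), Stage 2 (day 8), Stage 3+DMSO, which received the solvent at Stage 3, and Stage 3+KPT, which received KPT at Stage 3. The sources used here give no dose of KPT, time of exposure, day of the Stage 3 libraries or animals behind the replicates, so p-values measure only the spread between these cultures. The name KPT stands for a series of drugs that block XPO1, the receptor that carries proteins and some RNAs out of the nucleus. The labels do not say which of these drugs the cultures received.

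The first exon of a messenger RNA begins where transcription starts, and a gene with several promoters can have several first exons. The last exon usually carries most of the 3′ untranslated region and ends at the polyadenylation site, where the transcript is cut and its poly(A) tail is added. In libraries made from poly(A) RNA, as here, fragments come from molecules that kept their 3′ end. The 5′ end is covered only where such a molecule still extends to it. The ratio of the last to the first exon within a gene therefore cancels the gene's overall level and reads differences in start site, in 3′ end and in evenness of coverage together.

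Library totals recovered from the RPKM values ran from 13188023 to 24724019, and the reads of the 189618 exon rows summed to 1.93 to 2.00 times the total. The median member had 97.2 reads per library in its first exon and 423 in its last, and 586 members had fewer than 10 reads in a terminal exon of some library. Across members, ratios of 2 libraries of a group correlated with r from 0.917 to 0.953, and ratios of libraries from different groups with r from 0.885 to 0.945. All 8 interstitial cell markers listed (among them VIM, COL1A2, COL3A1 and PDGFRB) were expressed, and their RPKM summed to 20116 to 28372 in the 9 libraries without KPT and to 13793 to 14600 in the 3 with it. Of 7 endothelial markers 3 reached 1 RPKM in 3 libraries, with sums of 7.21 to 17.6 RPKM. Of 6 leukocyte markers 2 did, with sums of 10.2 to 15.1 RPKM, and of 6 cardiomyocyte markers 1, with sums of 0.169 to 1.55 RPKM. Of 4 epithelial and 2 red cell markers 0 did, with sums of up to 0.46 and 1.03 RPKM. The cardiomyocyte, epithelial and red cell lists each held 1 marker at 0 in every library, namely TNNT2, KRT19 and HBB. In such bulk samples, fewer cells of a type and less RNA per cell cannot be told apart.

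The typical member had a longer and more strongly covered last exon than first exon. The median first exon was 193 bases (quartiles 126 and 321) and the median last exon 618 bases (quartiles 223 and 1488.5), and the last was the longer in 3474 of 4467. The log2 ratio of last over first exon, averaged over the 12 libraries, was above 0 in 2742 members (61.4%), with a median of 0.35 and a range from -1.89 to 2.63 between the 5th and 95th percentiles. At least a 2-fold excess of the last exon was found in 1352 members and at least a 2-fold excess of the first in 618. Both ends lay below the inside of the gene. In Stage 1 the first exon was at a median log2 of -1.09 ± 0.029 (SD, n = 3) and the last exon at -0.70 ± 0.0064 against the median internal exon of the same gene. Relative to the mean of the gene's exon rows, and with the internal exons split by position into 5 bins, Stage 1 levels climbed from -0.02 in the bin nearest the start to 0.19 in the bin nearest the end.

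Exon length went along with the ratio. Across genes, which are not independent replicates, the mean ratio had a Spearman correlation of 0.27 with the length of the first exon and of -0.14 with that of the last. With members split into 5 bins of equal size by first exon length, the shortest bin (3 to 112 bases) had a median ratio of -0.05 and the longest (369 to 4546 bases) 0.94. The points share their libraries and depth, and short exons hold few reads.

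Among members with at least 50 reads in each terminal exon, the lowest ratios belonged to EIF3G (-6.59), a subunit of a translation initiation factor, and TPM1 (-5.60), which encodes an actin-binding tropomyosin. In Stage 1 the first exon of TPM1 stood at 4095, 4152 and 4287 RPKM and its annotated last exon at 102, 98.4 and 109 RPKM. In Stage 3+KPT the same exons stood at 380, 344 and 305 RPKM and at 9.43, 7.32 and 3.90 RPKM. TPM1 thus stood lower at both ends in Stage 3+KPT than in Stage 1, a difference that mixes stage, solvent and KPT. Between Stage 3+KPT and Stage 3+DMSO its ratio differed by -0.21 (SE 0.18, limma adjusted p = 0.59). The first exon of EIF3G has 20 bases, and its last exon overlaps P2RY11 on the opposite strand. FIBP, PCGF3 and MKKS followed with -5.27, -4.96 and -4.65. The highest ratios were those of POLR2B (5.83), BMP6 (5.47), LIN37 (4.61), GYS1 (4.40) and COQ2 (4.33). BMP6, a bone morphogenetic protein, had 5.41, 6.13 and 5.14 RPKM in its first exon and 241, 261 and 257 RPKM in its last exon in Stage 1.

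For part of these genes the last exon also lies on another gene. A terminal exon overlapped an exon row of a different gene in 400 of the 4467 members, at the last exon in 304 and at the first in 131. The libraries came from a stranded kit, and the exon rows themselves show how strand was treated. In 369 cases a row averaging at least 100 reads lay wholly inside a row of another gene on the opposite strand, and in all 369 the containing row held at least as many reads in every library, with a median of 7.39 times as many. A count that ignores strand must give this. Values of an exon that overlaps another gene therefore hold the reads of both genes, and so do the RPKM values of the genes.

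GYS1, the muscle glycogen synthase, was the clearest case. Its last exon (chromosome 6, 50092549 to 50097694, 5146 bases) overlaps FTL, the ferritin light chain, on the opposite strand. The last exon of GYS1 stood at 248, 281 and 279 RPKM in Stage 1, 384, 416 and 414 in Stage 2, 770, 773 and 798 in Stage 3+DMSO and 1308, 1564 and 1363 in Stage 3+KPT. The first exon stood at 35.9, 42.8 and 42.6 RPKM in Stage 1, 33.4, 28.1 and 24.9 in Stage 2, 16.8, 21.1 and 23.3 in Stage 3+DMSO and 27.8, 26.2 and 23.3 in Stage 3+KPT. The last exon separated the 4 groups without overlap, while the first exon was highest in Stage 1. FTL itself went from 1329 ± 102 RPKM in Stage 1 to 2127 ± 102, 4208 ± 76.4 and 7609 ± 741 RPKM in the groups that followed (SD, n = 3). The RPKM of GYS1 as a gene more than doubled from Stage 1 to Stage 3+DMSO, from 215 ± 13.2 to 566 ± 11.9, whereas its median internal exon went from 95.2 ± 5.70 to 47.7 ± 1.98 RPKM.

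**Figure D1:**
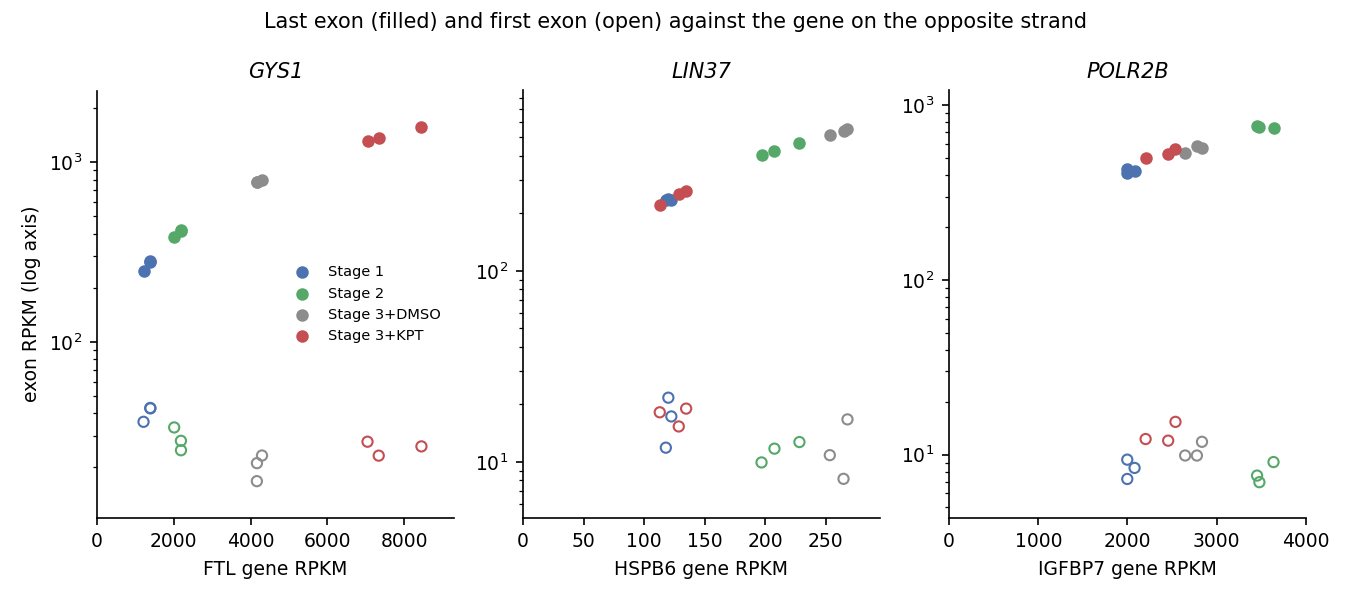
RPKM of the last exon (filled points) and the first exon (open points) of GYS1, LIN37 and POLR2B on a log axis, against the RPKM of the gene that overlaps the last exon on the opposite strand, one point per library coloured by group. The last exon of GYS1 rises from 248 to 1564 RPKM along with FTL, while its first exon stays between 16.8 and 42.8 RPKM; the partner's RPKM contains the shared reads.

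Progression from Stage 1 to Stage 2 moved the ratio of few members. The question here was whether transcript ends differ between an early and a later stage of calcification in culture. The ratio was higher in 10 members and lower in 3 at a limma adjusted p under 0.05, against 0.128% and 0.0813% of all 8611 genes tested. The median change over members was -0.04, beside -0.04 over all genes tested, and 111 members were higher and 282 lower at an unadjusted p under 0.05. Last exons that overlap another gene held 8 of the 10 rises, all with a partner on the opposite strand (among them LIN37, GYS1, SPIDR, PIAS3, FOSL1, DDX39A and POLR2B). The partner gene was itself called in 6 of the 8, in the same direction as the ratio in all 6, beside 16.3% of 13046 genes that rose and 24.4% that fell. The partner's RPKM contains the shared reads, so agreement in direction is partly built in. Counts over so few libraries were unsteady: leaving out Stage 1 replicate 1, Stage 1 replicate 2 or Stage 2 replicate 2 left 0 members called, with 327, 380 and 418 at an unadjusted p under 0.05, leaving out Stage 2 replicate 3 left 2, and leaving out Stage 1 replicate 3 or Stage 2 replicate 1 left 5.

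LIN37, a subunit of the DREAM complex that represses cell cycle genes, had a last exon of 235, 236 and 237 RPKM in Stage 1 and 468, 425 and 404 in Stage 2, beside a first exon of 11.9, 17.3 and 21.7 and of 12.7, 11.7 and 9.94 RPKM. The last exon did not overlap between the groups, and the first exon did. The ratio rose by 1.40 (SE 0.25, limma adjusted p = 0.041), and HSPB6, the small heat shock protein gene on the other strand, rose by 0.80 (SE 0.072, limma adjusted p = 5.6e-06). The call of LIN37 was lost in 11 of 23 alternative analyses, and that of POLR2B in 9 of 23. POLR2B, a core subunit of RNA polymerase II, rose by 0.92 (SE 0.15, limma adjusted p = 0.032) with IGFBP7 on the other strand, a secreted binder of growth factors, at 2026 ± 47.3 RPKM in Stage 1 and 3524 ± 99.9 in Stage 2. The RNA helicase DDX39A rose by 1.24 (SE 0.19) over ADGRE5, whose RPKM differed by 0.04 (limma adjusted p = 0.69). FOSL1, a member of the AP-1 transcription factor family, rose by 1.23 (SE 0.18) over CCDC85B.

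The 5 called members free of such an overlap were named after their values were seen. They were TGFB3 and IL33, which rose, and FAM214B, UBAP2L and MORF4L2, which fell. Fitted over genes without an overlap alone, these 5 had a limma adjusted p of 0.055 each and 0 members were called, with 333 at an unadjusted p under 0.05. The call of UBAP2L was lost in 13 of 23 alternative analyses, and that of TGFB3 in 11 of 23. TGFB3 encodes a transforming growth factor beta, a family that drives matrix production by these cells. Its first exon (chromosome 7, 105206554 to 105206982) stood at 115, 119 and 118 RPKM in Stage 1 and at 32.6, 41.8 and 38.1 in Stage 2, and its last exon (105178633 to 105179882) at 189, 205 and 196 and at 124, 126 and 131 RPKM. Both exons were lower in every Stage 2 library, the first by more, and the ratio rose by 1.02 (SE 0.15, limma adjusted p = 0.030). Against the median internal exon, the first exon of TGFB3 changed by -0.97 (limma adjusted p = 0.078) and the last by 0.05 (limma adjusted p = 0.97). IL33, an alarmin cytokine, had a first exon of 26.7, 27.5 and 31.9 RPKM in Stage 1 and 14.4, 16.5 and 15.3 in Stage 2, while its last exon went from 81.1, 79.4 and 88.1 to 116, 136 and 141 RPKM. Both exons of IL33 separated the groups, in opposite directions, and the ratio rose by 1.56 (SE 0.26, limma adjusted p = 0.039). In FAM214B and MORF4L2 the first exon, with means of 14.1 and 41.8 reads per library, was the one that changed, at 1.94 and 1.14 against the internal exons (limma adjusted p = 0.027 for each).

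From Stage 2 to Stage 3+DMSO the ratio was higher in 2 members, GYS1 and TMEM255A, and lower in 1, a gene without a symbol, against 0.0465% and 0.0348% of genes tested. At an unadjusted p under 0.05 these were 177 and 235 members, and leaving out Stage 2 replicate 3 or either of Stage 3+DMSO replicates 1 and 2 left 1 member called, while leaving out Stage 3+DMSO replicate 3 left 5. GYS1 rose by 1.45 (SE 0.15, limma adjusted p = 0.0027) and FTL by 0.99 (SE 0.079, limma adjusted p = 1.5e-06). TMEM255A rose by 2.20 (SE 0.30, limma adjusted p = 0.022), and ZBTB33, which overlaps its last exon on the opposite strand, was at 7.95 ± 1.52 and 7.76 ± 1.42 RPKM while TMEM255A as a gene fell by 2.25 on the log2 scale. DMSO was absent from the Stage 2 cultures, so its addition and the step to Stage 3 cannot be told apart.

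Over the whole course, Stage 3+DMSO against Stage 1, 5 members were higher and 8 lower, against 0.105% and 0.128% of genes tested, with 115 and 280 at an unadjusted p under 0.05. This comparison shares its libraries with the previous ones. An overlap with another gene was present in 4 of the 5 rises and 6 of the 8 falls. Leaving out either of Stage 3+DMSO replicates 2 and 3 left 7 members called. GYS1 rose by 2.53 (SE 0.15), LIN37 by 1.71 (SE 0.25), TMEM255A by 1.75 (SE 0.30) and TGFB3 by 1.35 (SE 0.15).

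ABI3BP, a matrix protein of fibroblasts, has a last exon that overlaps TFG on the opposite strand. Its first exon was at 6.77, 7.25 and 5.17 RPKM in Stage 1, 9.71, 18.7 and 30.2 in Stage 2, 85.6, 31.9 and 48.6 in Stage 3+DMSO and 11.5, 11.3 and 11.9 in Stage 3+KPT, while its last exon stayed between 39.2 and 59.2 RPKM in all 12 libraries. The ratio fell by 2.91 (SE 0.38, limma adjusted p = 0.0065) over the course and rose by 1.82 (SE 0.38, limma adjusted p = 0.025) with KPT. TFG was at 260 ± 5.60 RPKM in Stage 1, 252 ± 4.54 in Stage 3+DMSO and 215 ± 2.63 in Stage 3+KPT. The symbol ABI3BP is carried by 2 gene IDs, of which 1 was a member. Without an overlap, OSBPL9, a lipid transfer protein, fell by 1.18 (SE 0.16, limma adjusted p = 0.0065), with a first exon of 26.4, 19.5 and 21.0 RPKM in Stage 1 and 43.6, 36.7 and 38.5 in Stage 3+DMSO. Its last exon went from 36.7, 35.0 and 41.0 to 29.7, 28.8 and 30.2 RPKM, so that both exons separated these groups.

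KPT shifted the ratio broadly towards the last exon. The comparison of Stage 3+KPT with Stage 3+DMSO asks what the compound changes in cells of the same stage. The median ratio over members was 0.284, 0.261 and 0.272 in the Stage 3+DMSO libraries and 0.466, 0.417 and 0.517 in the Stage 3+KPT libraries. All 3 KPT libraries lay above the other 9, whose medians reached 0.356 at most, in Stage 1 replicate 3. The groups averaged 0.34 ± 0.015 in Stage 1, 0.28 ± 0.027 in Stage 2, 0.27 ± 0.011 in Stage 3+DMSO and 0.47 ± 0.050 in Stage 3+KPT (SD, n = 3). Per gene, the median change with KPT was 0.20 over members and 0.18 over all genes tested, and 74.4% of members changed upwards. Groups did not overlap in 1232 members on the higher side (27.6%, beside 23.3% of genes tested) and in 161 on the lower side (3.60%, beside 4.29%). The lean was thus a property of the tested genes as a whole, and members were close to the background.

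**Figure D2:**
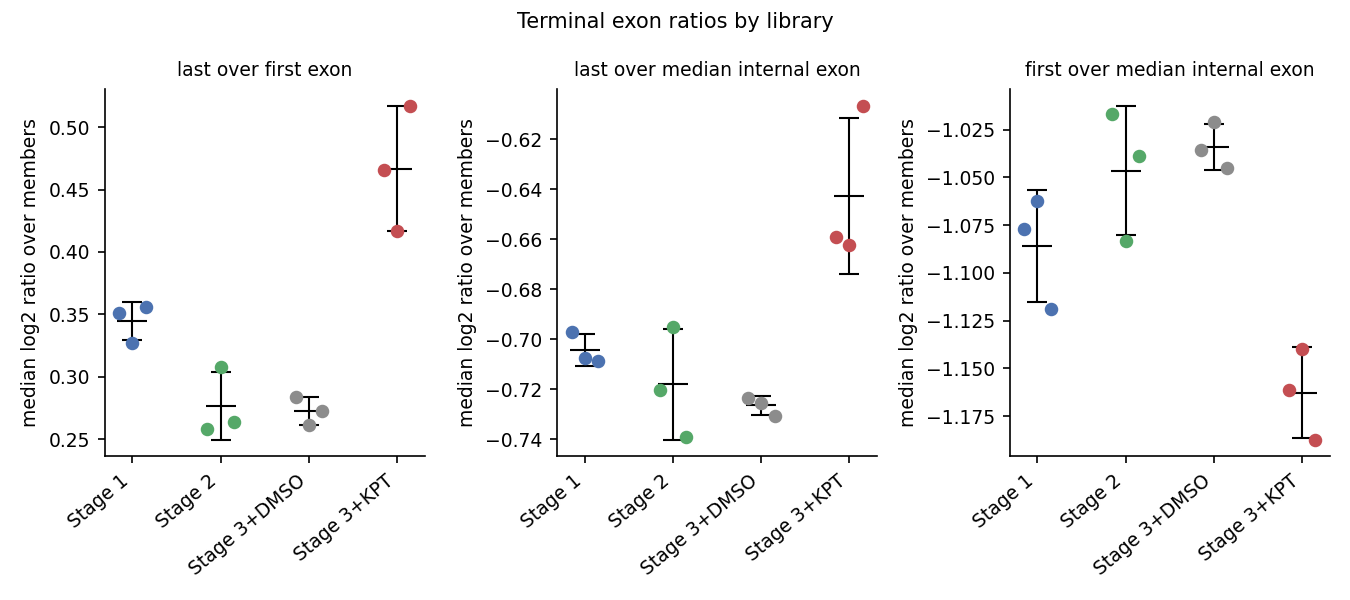
Median log2 ratio over members in each library, for the last over the first exon (4467 genes), the last over the median internal exon (4392 genes) and the first over the median internal exon (4392 genes), with the mean and SD of each group in black. The 3 Stage 3+KPT libraries have the highest last over first medians (0.417 to 0.517), the highest last over internal medians and the lowest first over internal medians; the axes do not start at 0.

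Measured against the internal exons, the shift sat at both ends of the gene. The median log2 change with KPT, relative to the mean of a gene's exon rows, was -0.12 for first exons and 0.08 for last exons, and between -0.02 and 0.0047 in the 5 bins of internal exons. In the 3 stage comparisons all positions lay between -0.02 and 0.05. Internal exons make up most of a gene's exon rows, so division by their mean holds the internal bins near 0. The bins thus show only differences along the gene. First exons were at a log2 of -1.16 ± 0.024 against the internal exons in Stage 3+KPT and -1.03 ± 0.012 in Stage 3+DMSO, and last exons at -0.64 ± 0.031 and -0.73 ± 0.0038 (SD, n = 3). The libraries of the 2 groups did not overlap in either measure.

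**Figure D3:**
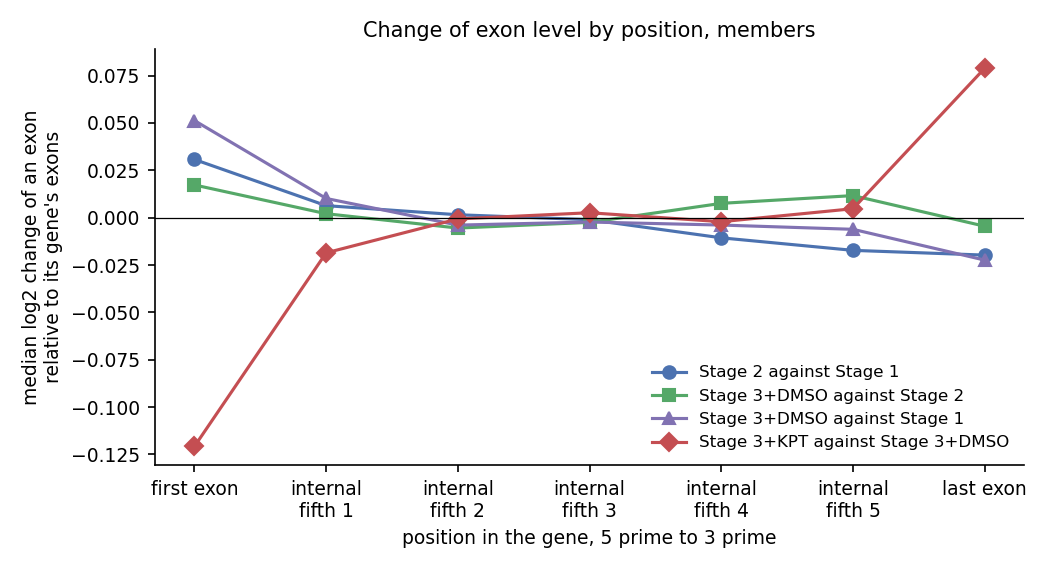
Median log2 change of an exon relative to the mean of its gene's exon rows, by position along the gene from the first exon through 5 bins of the internal exons to the last exon, for 4 comparisons that share libraries. Stage 3+KPT against Stage 3+DMSO lies at -0.12 at the first exon and 0.08 at the last, with internal bins between -0.02 and 0.0047, while the 3 stage comparisons stay between -0.02 and 0.05 at every position. Most exon rows are internal, so the scale itself holds the internal bins near 0.

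Gene by gene, the ratio was higher in 253 members and lower in 22 at a limma adjusted p under 0.05, against 4.01% and 0.418% of genes tested, and changed at least 2-fold in 78 and 12 of them. At an unadjusted p under 0.05 the counts were 1028 and 111. When each library was centred on its own median ratio, which removes the general shift, 46 members were higher and 27 lower. The share of rises among the called members went from 92.0% to 63.0% on that scale. The count depended on single libraries: 37 members without Stage 3+DMSO replicate 2, 44 without Stage 3+KPT replicate 3, 55 without Stage 3+DMSO replicate 3, 56 without Stage 3+KPT replicate 1, 93 without Stage 3+DMSO replicate 1 and 333 without Stage 3+KPT replicate 2, while the median change stayed between 0.18 and 0.22.

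Overlaps with other genes were present in 36 of the 253 rises and 10 of the 22 falls. Of the 400 members with an overlap 9% were called higher and 2.5% lower, against 5.34% and 0.295% of the 4067 without one. Without the overlapping genes the median change was 0.20 and a fit over the remaining genes called 195 members higher and 12 lower. The change was 0.18 in the 2326 members with another gene within 10 kb downstream of the last exon and 0.23 in the 2141 without one. It grew with the length of the last exon, from 0.14 in the shortest of 5 bins (4 to 184 bases) to 0.25 in each of the 2 longest (878 to 9637 bases), and had no such order with the length of the first exon, where the 5 bins lay between 0.18 and 0.21. The Spearman correlations across genes were 0.12 and 0.0058. By gene level (30.5% of genes tested rose and 29.5% fell with KPT), the change was 0.23 in 1620 members whose RPKM rose with KPT, 0.19 in 1471 not called and 0.18 in 1376 that fell. This order did not hold at larger changes of the gene. The change was 0.23 in 290 members that fell at least 2-fold, with 11.4% called higher. In 224 members that rose at least 2-fold it was 0.22, with 5.80% called higher. Of 5 bins by terminal exon RPKM, the highest (from 72.5 RPKM) held 125 of the 253 rises, while its median change of 0.19 was the smallest of the 5, which reached 0.23. The library totals of the KPT group (14001872, 22185411 and 24724019) spanned those of the DMSO group (19818092 to 20953807), and the sources used here give no RNA integrity, so its part in the shift was not tested.

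Of the 250 higher members that had internal exons to compare with, 227 combined a first exon that went down with a last exon that went up against the median internal exon. All 250 were chosen by a rise of last over first. That choice excludes the opposite pattern, found in 0, and favours this one. The first exon moved more in 125 and the last in 125. By the test against internal exons, the first exon was called lower in 39 and the last called higher in 87, beside 0.872% and 3.05% of the 7683 genes in that test. The choice on the ratio raises both counts, so they cannot be weighed against that background. Over all 4392 members with internal exons, whatever their ratio, the counts were 53 and 181. Among the 22 lower members, the first exon moved more in 11 and the last in 11.

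**Figure D4:**
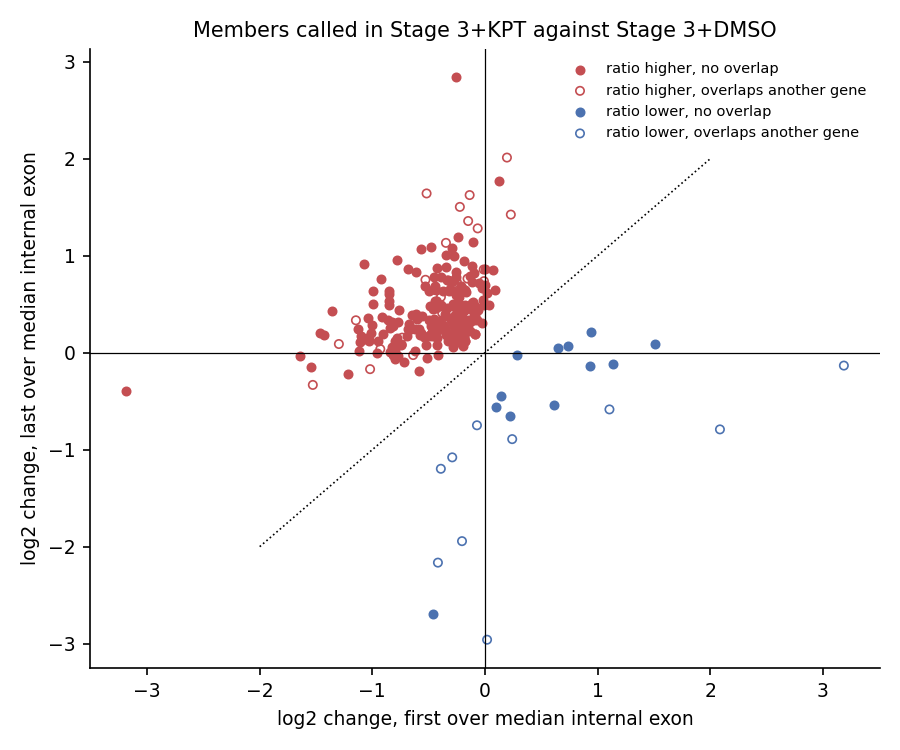
Log2 change with KPT of the first exon (x axis) and of the last exon (y axis) against the median internal exon, for called members with internal exons, red where the ratio rose (250) and blue where it fell (22), open where a terminal exon overlaps another gene; points above the dotted line of equal change have a higher ratio. Of the 250 red points, 227 lie at the upper left, with a lower first and a higher last exon. The choice of members by a higher ratio leaves no red point at the lower right.

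The largest rises among members with at least 50 reads in each terminal exon were those of ABI3BP, EED, SYNC, ETFA, ACSS2, SSBP2, MTERF3 and GLIPR1, from 1.82 down to 1.48. Terminal exons of 5 of these overlap another gene, namely ABI3BP over TFG, SYNC over RBBP4, ACSS2 over GSS, GLIPR1 over KRR1 and, at its first exon, MTERF3 over PTDSS1. The other 3 were free of overlaps. EED, a core subunit of Polycomb repressive complex 2, had a first exon of 10.1, 9.43 and 9.89 RPKM with DMSO and 9.94, 14.3 and 9.92 with KPT, and a last exon of 5.70, 5.04 and 7.61 RPKM with DMSO and 22.8, 18.8 and 28.4 with KPT. The last exons did not overlap between the groups and the first exons did. The ratio of EED rose by 1.74 (SE 0.35, limma adjusted p = 0.022), and its median internal exon was at 21.8 ± 4.88 RPKM with DMSO and 42.2 ± 3.27 with KPT. ETFA, part of the mitochondrial carrier of electrons from fatty acid oxidation, rose by 1.64 (SE 0.35, limma adjusted p = 0.027), with a last exon of 13.2, 12.6 and 14.3 RPKM with DMSO and 47.4, 32.7 and 70.6 with KPT.

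SSBP2, a transcriptional cofactor, changed more at the first exon. Against the median internal exon, its first exon changed by -0.998 and its last by 0.50. In EED these were -0.78 and 0.96, and in ETFA -0.57 and 1.07, so the last exon moved more there. The first exon of SSBP2 fell from 53.8, 39.7 and 38.8 RPKM to 10.1, 9.75 and 5.73, and its last exon from 22.3, 17.5 and 17.5 to 11.9, 9.45 and 9.31 RPKM. Both exons separated the groups, the first by more, and the ratio rose by 1.5 (SE 0.24, limma adjusted p = 0.0087) while the gene fell by 1.24 on the log2 scale. WISP2, a secreted matrix-associated protein of the CCN family named here after its values were seen, behaved alike, with a first exon of 31.8, 36.2 and 40.3 RPKM with DMSO and 7.02, 7.39 and 6.63 with KPT. Its last exon stood at 69.1, 79.4 and 88.0 and at 40.8, 40.7 and 37.3 RPKM, and its ratio rose by 1.37 (SE 0.20, limma adjusted p = 0.0070). INSIG1, which holds back the activation of cholesterol synthesis genes and was also named after its values were seen, changed at the last exon. Its first exon was at 74.4, 79.1 and 71 RPKM with DMSO and 62.0, 75.9 and 82.0 with KPT, which overlapped, and its last exon at 29.9, 23.3 and 28.5 and at 69.2, 57.1 and 79.6 RPKM, which did not. The ratio of INSIG1 rose by 1.37 (SE 0.22, limma adjusted p = 0.0081). Further rises without an overlap, chosen in the same way, were CWC27 (1.45), GNPNAT1 (1.45), GTF2A2 (1.43), SEC24A (1.35) and SEPT7 (1.35).

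**Figure D5:**
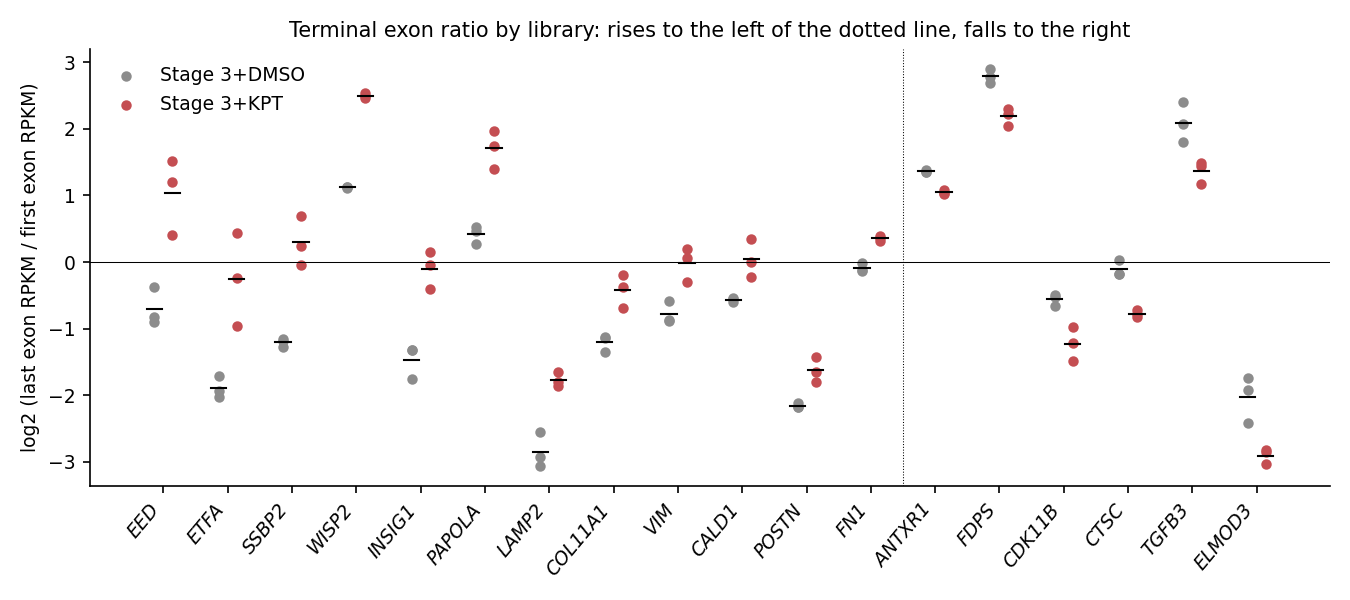
Log2 ratio of last over first exon RPKM in the 3 Stage 3+DMSO and 3 Stage 3+KPT libraries for 18 members without an overlapping gene, 12 that rose with KPT left of the dotted line and 6 that fell right of it, with the group mean as a bar. The members were picked among called changes, so the separation of the 2 groups in each follows from the choice; WISP2 goes from 1.13 to 2.50 and CTSC from -0.11 to -0.78.

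Of the 37 members among the matrix and valve genes, 6 rose and 0 fell with limma (14 and 0 at an unadjusted p under 0.05), beside 4.01% and 0.418% of all genes tested. The list's median change was 0.16 beside 0.18 over all genes tested. Calls were more frequent at high level: the highest of 5 bins by terminal exon RPKM held 125 rises among 894 members. The share over all genes tested is not matched for level, here and in the lists that follow. The part of level in the list counts was not tested. COL11A1, a fibrillar collagen chain, had a first exon of 385, 317 and 455 RPKM with DMSO and 82.0, 99.2 and 107 with KPT, and a last exon of 175, 145 and 179 and of 72, 61.4 and 82.4 RPKM. Both exons were lower in every KPT library, and the ratio rose by 0.79 (SE 0.16, limma adjusted p = 0.022). Against the median internal exon, the last exon of COL11A1 changed by 0.86 and the first by 0.069. POSTN, a matricellular protein of valve and fibrous tissue, rose as a gene and in its ratio. Its last exon went from 238, 291 and 266 RPKM to 952, 825 and 918, its first exon from 1031, 1315 and 1202 to 2985, 2868 and 2468, and the ratio rose by 0.53 (SE 0.097, limma adjusted p = 0.015). FN1, fibronectin, rose by 0.45 (SE 0.077, limma adjusted p = 0.013), with a last exon of 2360, 2346 and 2565 RPKM with DMSO and 2950, 2714 and 3466 with KPT, beside a first exon that overlapped between the groups. COL1A2, a chain of type I collagen, rose by 0.41 (SE 0.089, limma adjusted p = 0.028) and THBS1, thrombospondin, by 0.34 (SE 0.068, limma adjusted p = 0.022). DCN, COL3A1, COL6A3, BGN and ELN differed by 0.05, 0.06, 0.15, 0.20 and -0.47 and did not pass the test.

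Cytoskeletal and contractile genes counted 8 rises and 0 falls among 29 members with limma (10 and 0 at an unadjusted p under 0.05), beside 4.01% and 0.418% of all genes tested. Their median change of 0.14 was below the 0.18 over all genes, and the share over all genes is again not matched for level. VIM, the intermediate filament vimentin, had a first exon of 6574, 7950 and 7532 RPKM with DMSO and 2671, 3067 and 3039 with KPT. Its last exon stood at 4396, 4369 and 4086 and at 2781, 2504 and 3485 RPKM. Both exons were lower in every KPT library, and the ratio rose by 0.76 (SE 0.17, limma adjusted p = 0.032). Against the median internal exon, the last exon of VIM changed by 0.72 and the first by -0.048. CALD1, caldesmon, rose by 0.60 (SE 0.14, limma adjusted p = 0.034), with a first exon of 805, 725 and 814 RPKM with DMSO and 616, 592 and 528 with KPT. Its last exon overlapped between the groups, at 556, 495 and 535 and at 614, 507 and 672 RPKM. Against the median internal exon, however, the last exon of CALD1 changed by 0.62 and the first by 0.016. ACTA2, the smooth muscle actin of activated valve cells, fell at both ends, from 2741 ± 462 to 647 ± 93.0 RPKM at the first and from 4349 ± 566 to 1267 ± 176 at the last, and its ratio rose by 0.30 (SE 0.073, limma adjusted p = 0.042), a call lost in 12 of 24 alternative analyses. TAGLN (0.09) and TPM1 (-0.21) did not pass.

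Ribosomal protein genes of the cytoplasm counted 5 rises and 0 falls among 24 members (9 and 0 at an unadjusted p under 0.05), beside the same 4.01% and 0.418%. Their median change was also 0.14, below the 0.18 over all genes. RPL13 rose by 1.09 (SE 0.21, limma adjusted p = 0.018) and RPL27 by 0.60 (SE 0.13, limma adjusted p = 0.027); near-identical copies of such genes make their counts uncertain. Lysosomal genes counted 2 rises among 18 members (8 at an unadjusted p under 0.05, and 0 falls by either count), all 18 changed upwards, and the median was 0.24 beside 0.18 over all genes. The lysosomal protease gene CTSC, a called fall described further on, is not in that list. LAMP2, a glycoprotein of the lysosomal membrane, had a last exon of 18.5, 20.9 and 19.98 RPKM with DMSO and 58.1, 53.0 and 62.1 with KPT, beside a first exon of 154, 159 and 117 and of 211, 184 and 195 RPKM. Both exons were higher in every KPT library, the last by more, and the ratio rose by 1.08 (SE 0.16, limma adjusted p = 0.0073). ATP6V1A, a subunit of the proton pump of lysosomes, rose by 0.97 (SE 0.20, limma adjusted p = 0.027). Among 14 glycolytic members 1 rose, LDHA (0.35, SE 0.065, limma adjusted p = 0.016), and among 12 members of a list of folding, endoplasmic reticulum and amino acid stress genes 2 rose, PSAT1 (0.76) and CANX (0.61). CANX encodes a chaperone of the endoplasmic reticulum, whereas PSAT1 encodes an enzyme of serine synthesis and takes no part in folding. PSAT1 rose in its ratio while the gene fell by 4.92 on the log2 scale. HIF1A, the hypoxia-inducible factor, rose by 0.40 (SE 0.10, limma adjusted p = 0.047), and against the internal exons its first exon fell by 0.59 (limma adjusted p = 0.021) and its last changed by -0.19 (limma adjusted p = 0.093). The calls of CANX and HIF1A were each lost in 12 of 23 alternative analyses.

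Factors that form, protect or remove transcript ends were read in 2 ways, by their own ratio and by their gene level. Over all genes tested, 4.01% rose and 0.418% fell in the ratio with KPT. In the list of 3′ end processing factors, 1 of 16 members rose and 0 fell (4 and 0 at an unadjusted p under 0.05). This was PAPOLA, the poly(A) polymerase, with a first exon of 35.9, 39.7 and 40.7 RPKM with DMSO and 27.4, 35.6 and 31.9 with KPT and a last exon of 51.7, 54.8 and 49.3 and of 107, 94.0 and 107 RPKM. The ratio of PAPOLA rose by 1.28 (SE 0.22, limma adjusted p = 0.013). As genes, 9 of 22 rose and 4 fell with KPT, beside 30.5% and 29.5% of all 13046 genes tested, a background that the gene counts of the next lists share. PAPOLA went from 69.0 ± 3.41 to 121 ± 6.51 RPKM and the cleavage factor gene WDR33 from 14.8 ± 0.435 to 24.03 ± 2.51, whereas the poly(A)-binding protein genes PABPC4 and PABPC1 went from 122 ± 3.57 to 53.6 ± 1.58 and from 583 ± 65.4 to 394 ± 22.0 RPKM (SD, n = 3). All 4 passed the test. Of 24 genes of deadenylation and 5′ to 3′ decay, 13 rose and 1 fell, with the exonuclease XRN1 at 5.27 ± 0.256 RPKM with DMSO and 12.3 ± 1.42 with KPT. Of 15 exosome genes, 8 rose and 2 fell, among them EXOSC9 (0.83) upwards and EXOSC10 (-0.78) downwards. In these 2 lists 0 members were called in the ratio with limma, with 2 higher among 14 members and 1 higher and 1 lower among 8 at an unadjusted p under 0.05. Among 20 export genes 7 rose and 8 fell as genes. XPO1 went from 23.7 ± 2.69 to 117 ± 19.8 RPKM, and its ratio differed by -0.21 (SE 0.32, limma adjusted p = 0.78).

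The 22 falls ran against the general shift. Among the largest with at least 50 reads in each exon were LIN37 (-1.75), XPC (-1.74), ELMOD3 (-0.88), NDEL1 (-0.81), TGFB3 (-0.73), CTSC (-0.67) and CDK11B (-0.66). Of these LIN37, XPC and NDEL1 overlap HSPB6, TMEM43 and MYH10, and these 3 partners fell with KPT, by 1.06, 0.63 and 1.63 on the log2 scale. XPC, a recognition factor of nucleotide excision repair, had a first exon of 11.6, 9.06 and 9.45 RPKM with DMSO and 36.1, 29.6 and 25.5 with KPT, and a last exon of 90.8, 95.3 and 91.5 and of 85.9, 83.6 and 81.4 RPKM. Over all overlapping last exons, the ratio was called in 38 members with KPT and the partner gene in 29 of them, in the same direction in 24. With 30.5% of all genes called higher and 29.5% called lower, most genes were called, and the partner's RPKM contains the shared reads.

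Falls without an overlap were led by the first exon in some genes and by the last in others. CTSC, the lysosomal protease cathepsin C, rose at both ends and most at the first. Its first exon stood at 81.2, 115 and 102 RPKM with DMSO and 323, 318 and 281 with KPT, and its last at 82.5, 101 and 90.6 and at 188, 179 and 170 RPKM. The ratio of CTSC fell by 0.67 (SE 0.11, limma adjusted p = 0.0087), and against the internal exons its first exon rose by 0.74 (limma adjusted p = 0.016). TGFB3 fell at both ends with KPT, to 15.5, 13.9 and 16.1 RPKM at the first exon and 42.1, 38.8 and 36.4 at the last. Against its internal exons, the first exon of TGFB3 rose by 0.94 (limma adjusted p = 0.022), and its ratio of 1.37 ± 0.17 lay between 0.74 ± 0.039 in Stage 1 and 2.09 ± 0.30 in Stage 3+DMSO. In CDK11B, a kinase tied to transcription and splicing, the last exon stood at 38.4, 35.6 and 39.5 RPKM with DMSO and 25.6, 28.0 and 27.6 with KPT while the first exon overlapped, and the ratio fell by 0.66 (SE 0.14, limma adjusted p = 0.028). MMP23B lies 42 bases beyond that last exon on the opposite strand, at 186 ± 14.6 RPKM with DMSO and 120 ± 2.38 with KPT. Whether reads of MMP23B reach the last exon of CDK11B was not tested. ELMOD3 fell by 0.88 (SE 0.20, limma adjusted p = 0.032), with a first exon of 47.8, 44.1 and 51.4 RPKM with DMSO and 67.2, 66.7 and 58.6 with KPT and a last exon of 14.3, 11.7 and 9.64 and of 8.19, 9.44 and 8.09 RPKM. Named after their values were seen, FDPS of the mevalonate pathway fell by 0.60 (SE 0.12), PDCD6IP by 0.59 (SE 0.14) and ANTXR1, a collagen-binding receptor, by 0.32 (SE 0.075). ANTXR1 went from 143, 180 and 199 RPKM to 304, 295 and 286 at the first exon and from 372, 461 and 510 to 615, 604 and 606 at the last, so that both ends separated the groups.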

How the data were processed

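Messenger RNA libraries were made with the TruSeq Stranded mRNA kit, per the labels' protocols, and TopHat2 2.1.0 is the aligner that the submitters' processing notes name. The sources used here name no counting tool, genome build or annotation release, and coordinates are those of the deposited table. The authors deposited RPKM values for exons and genes. Multiplied by exon length and a whole-number library total, 100% of exon values gave whole reads within 0.0001 of a read. Of the exon rows, 3519 share their coordinates with another row.

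The ratio log2(last exon RPKM / first exon RPKM), with no pseudocount, was tested with limma 3.58.1 in R 4.3.3. All 12 libraries entered 1 fit with a coefficient per group and a trend on the mean log2 RPKM of the 2 exons. The 8611 genes tested were of any biotype, with at least 2 exon rows, both terminal exons above 0 in every library and a mean of at least 1 RPKM. Calls have a Benjamini-Hochberg adjusted p under 0.05 over all of them. Exon rows and genes were tested on log2(RPKM + 1), where they reached 1 RPKM in 3 libraries; such fold changes understate the change of low genes. Terminal exons were also tested against the median internal exon. On simulated data for Stage 3+KPT against Stage 3+DMSO with 8544 genes, 56% of log2 changes of 1 and 6% of 0.5 were recovered upwards, 46% and 0% downwards, and 2 of 8344 unchanged genes were called. The simulation drew Poisson reads with the same extra spread for every gene and no general shift of the ratio. Its rates therefore need not hold for the real calls.

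The members and lists were chosen with earlier results of these data known. Named genes are members with a symbol: the largest called changes without overlap between groups and with 50 reads per exon (8 each way, 5 over the whole course), the 5 highest and 5 lowest mean ratios, up to 2 called members per list and direction, and a panel of valve genes, some left out for length. One gene named by this rule, and a result that rests on it, are not reported here. Alternatives covered pseudocounts, filters, centring, quantile normalization, weights, other exon definitions, a replicate block and each library left out. The fit without genes whose terminal exons overlap another gene was added after seeing the data. No sequence is shown because no genome was used here.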

Additional observations from a re-analysis of the deposited data

How the results depend on the processing

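For Stage 3+KPT against Stage 3+DMSO, 275 members became 73 after centring each library, 102 after quantile normalization, 72 without the trend, 435 with recovered reads and counting weights, 181 with both exons of at least 200 bases and 67 for the first exon against the internal exons. Leaving out each library gave 37 to 333. The median change of 0.20 became 0.02 after centring, 0.0044 after quantile normalization and 0.08 for the last exon against the internal exons. For Stage 2 against Stage 1, 13 became 6 after quantile normalization, 2 without the trend, 0 in a fit of the 2 groups alone (324 at an unadjusted p under 0.05 with limma), 3 for the first exon against the internal exons, 0 without overlapping genes (333) and 0 to 5 with a library left out. For Stage 3+DMSO against Stage 2, 3 became 6 with a pseudocount of 1, 6 with at least 10 reads, 0 in a fit of the 2 groups alone (401), 11 with counting weights, 6 without overlapping rows of the same gene, 9 with exons of at least 200 bases, 19 for the last and 0 (341) for the first exon against the internal exons, 1 without overlapping genes and 1 to 5 with a library left out. For Stage 3+DMSO against Stage 1, 13 became 24 and 8 for the last and the first exon against the internal exons, 2 without overlapping genes and 7 to 12 with a library left out. The difference of median ratios was -0.057 in place of -0.072 at a mean of at least 50 RPKM. That of Stage 3+DMSO and Stage 2 was -0.0044, ranged from -0.014 to 0.011 with a library left out, and turned positive without Stage 3+DMSO replicate 2 (0.0012) or Stage 2 replicate 2 (0.011). The cause of these moves was not tested, apart from the fewer genes or libraries that some alternatives hold. Named calls with KPT were lost to differing degrees. That of RPL27 was lost in 10 of 23 alternatives, those of VIM and COL1A2 in 9 of 24 each and that of CALD1 in 9 of 23. Those of CTSC and XPC were lost in 0 of 24 and 0 of 22.

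The replicate block left 7, 1, 12 and 183 members in the 4 comparisons. Same-numbered libraries deviated together with r from -0.058 to 0.046 in 18 pairs, none over 0.1, and 5 of 12 libraries correlated best with their own number. Whether libraries of the same number share an animal or a batch was not tested.

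Taking one terminal exon at a time turned the sign of some named genes. With the median internal exon in place of the last exon, Stage 2 against Stage 1 gave LIN37 -0.070, DDX39A -0.11, FOSL1 -0.49 and GYS1 -0.15. Stage 3+DMSO against Stage 2 gave TMEM255A -0.93. Stage 3+DMSO against Stage 1 gave GYS1 -0.00015, TMEM255A -0.64, LIN37 -0.22, ABI3BP 0.18 and VMP1 0.21. Stage 3+KPT against Stage 3+DMSO gave ABI3BP -0.20, LIN37 0.42, XPC 0.20, NDEL1 0.39, COL11A1 -0.069, CALD1 -0.016 and FN1 -0.039. With the median internal exon in place of the first exon, TGFB3 gave -0.059 over the whole course and 0.21 with KPT, CTSC 0.072 and HIF1A -0.19. None of these 21 values passed the test, and each leaves out 1 of the 2 terminal exons.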
